A study of Saccharomyces cerevisiae with 593 samples.

Results

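The genes examined encode protein components of the yeast spliceosome: the proteins of the U1, U2 and U4/U6.U5 small nuclear ribonucleoproteins (snRNPs) and of the Prp19-associated complex (NTC), with factors that work beside them. They were chosen by gene symbol from a list of 54 genes, and 53 of these had named spots on the arrays, read by 55 of the 1457 named oligos (982 genes). MUD1 had 3 oligos and each other gene had 1, and SPP382 was not found under that symbol. The U1 and commitment group held 12 genes (14 oligos), the U2 group 10, the tri-snRNP group 14 and the Prp19-associated group 17.

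The data are 593 hybridisations of Saccharomyces cerevisiae total RNA to 2-colour arrays, made to follow RNA processing under environmental stress and nutrient limitation. On each array the RNA of a stressed, starved or mutant culture carried one dye and that of its control the other, and 282 of 311 array identifiers were hybridised in both dye orientations. Every value below is a log2 ratio of the first-named RNA over its control, taken as the mean of 6 spots per oligo and then of the orientations; an identifier is 1 replicate. The log base is not stated in the labels and was taken as 2.

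Most comparisons used the wild type after 20 min. The treatments set against untreated wild-type cells of the same time were 1 M KCl (4 replicates), 300 mM LiCl (3), 0.5 M NaCl (2), heat shock at 42 degrees Celsius (2), sulfometuron methyl (SMM, an inhibitor of branched-chain amino acid synthesis) at 5 ug/mL (2), and media without glucose (2), amino acids (2), nitrogen (2) or inositol (2). KCl with the casein kinase 2 inhibitor TBB (2), KCl with 3-aminotriazole (3-AT, which blocks histidine synthesis; 2), and 3-AT in medium without nitrogen (2) had the same kind of control. Rapamycin at 200 ng/mL (an inhibitor of the TOR kinase; 4), wortmannin at 1 mg/mL (a phosphatidylinositol kinase inhibitor; 2) and 3-AT at 50 mM (3) were set against wild-type cells taken before treatment. A hog1 deletion in KCl (2), which lacks the osmotic stress kinase, a his3 deletion without histidine (4) and the HIS3 repaired strain without histidine (4) were each set against untreated cells of their own strain. TBB is given in the labels at 20 uM. Groups at 5, 10 and 40 min had the same kinds of control, except for 3-AT with TBB. At 5 and 10 min that treatment was set over cells before treatment (3 replicates) and over cells in 3-AT alone (2). Its groups at 0 and 15 min over cells before treatment and at 20 min over 3-AT alone enter only the shared fit and the correlations between members. Groups of 1 replicate were the rrp6, edc2 and ckb1 ckb2 deletions and 1 M sorbitol, each over untreated cells, the rrp6 and ckb1 ckb2 deletions over the wild type given the same treatment, and the cka1 and cka2 deletions in SMM over their cells before treatment. Wild-type groups of 1 replicate also used here were dithiothreitol at 1 mM and at 10 mM over cells before treatment, medium without phosphate, TBB alone, and KCl with TBB over KCl alone. Some heat shock replicates were also in groups of 1 replicate. Nothing in the labels tells whether replicates came from separate cultures, so p-values measure only the spread between these samples, which may be technical.

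Splicing begins when the U1 snRNP pairs with the start of an intron and the branch point binding protein with its partner occupies the branch site. The U2 snRNP then replaces them at the branch site, the U4/U6.U5 tri-snRNP joins, and U1 and U4 leave. The Prp19-associated complex stabilises the activated spliceosome, and further proteins serve the first and the second chemical step. In budding yeast few genes have introns, but many of these, the ribosomal protein genes above all, are highly transcribed. The values here are RNA levels of the factors' own genes and do not measure the proteins or splicing itself. The annotation used here does not say which part of a gene an oligo reads. A ratio is also relative to the total RNA of each culture, so less RNA per cell and a smaller share of the RNA cannot be told apart.

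Known stress responders were called in some treatments and not in others. ENA1, the sodium and lithium efflux pump gene, stood at 2.79 ± 0.43 in LiCl (SD, n = 3) and at 1.76 in NaCl but at -0.13 in KCl, where GPD1, a glycerol synthesis gene, stood at -0.42 (limma adjusted p = 0.20) against 1.85 in LiCl and 1.31 in NaCl. HSP104, a heat shock disaggregase gene, stood at 3.95 ± 2.17 at 42 degrees (SD, n = 2). None of ENA1, GPD1, HSP104 and the heat shock gene SSA4 passed in KCl, rapamycin, SMM or 3-AT or without nitrogen. The RRP6 oligo was below 0 in 13 of 13 arrays of the rrp6 deletion over the wild type, between -3.40 and -0.85. Missing spots made up 0.0326% to 64.1% of an array (median 4.64%), and array medians lay between -0.0391 and 0.0477. Spot intensities were not used here, so the precision rests on replicate spread: the median standard error of a member's mean was 0.11 with 4 replicates, 0.13 with 3 and 0.15 with 2. The 28 identifiers with 1 dye orientation in batch B (batches are the leading part of the array titles, lettered here) include 1 replicate each of heat, glucose, SMM, amino acids and 3-AT with KCl, and their values correlated at 0.31 to 0.72 across oligos with the arrays' dye effect.

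Over the 18 comparisons at 20 min, the spliceosomal genes moved by small amounts and more often upward than downward. They made 119 calls (limma adjusted p under 0.05, adjusted over all 1457 oligos), 86 upward and 33 downward, and 113 of these had a mean under 1 log2 unit in size, with a median size of 0.46. In 117 of the 119 all replicates had the same sign. The calls were picked by these same replicates, so this agreement is largely set by the choice, and its share among all oligos' calls was not counted. As a share of tests, 12.02% of the members' and 13.1% of all oligos' were called, so they were not called more often than the array as a whole. Of the members' calls 72.3% were upward, against 48.3% of all oligos' calls; under 7 other processing settings the members' share ran from 72.03% to 79.9%, and with Cy5 orientations alone it was 57.8%. The members' median lay above the all-oligo median in 18 of 18 comparisons, with members' medians of 0.00 to 0.14 and all-oligo medians of -0.02 to 0.03.

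The Prp19-associated group had 37 calls upward and 7 downward (14.4% of its tests), the U1 and commitment group 23 and 5 (11.1%), and the U2 group 13 and 4 (9.44%). The tri-snRNP group had 13 upward and 17 downward (11.9%). Whether the groups' directions or shares differ was not tested.

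**Figure D1:**
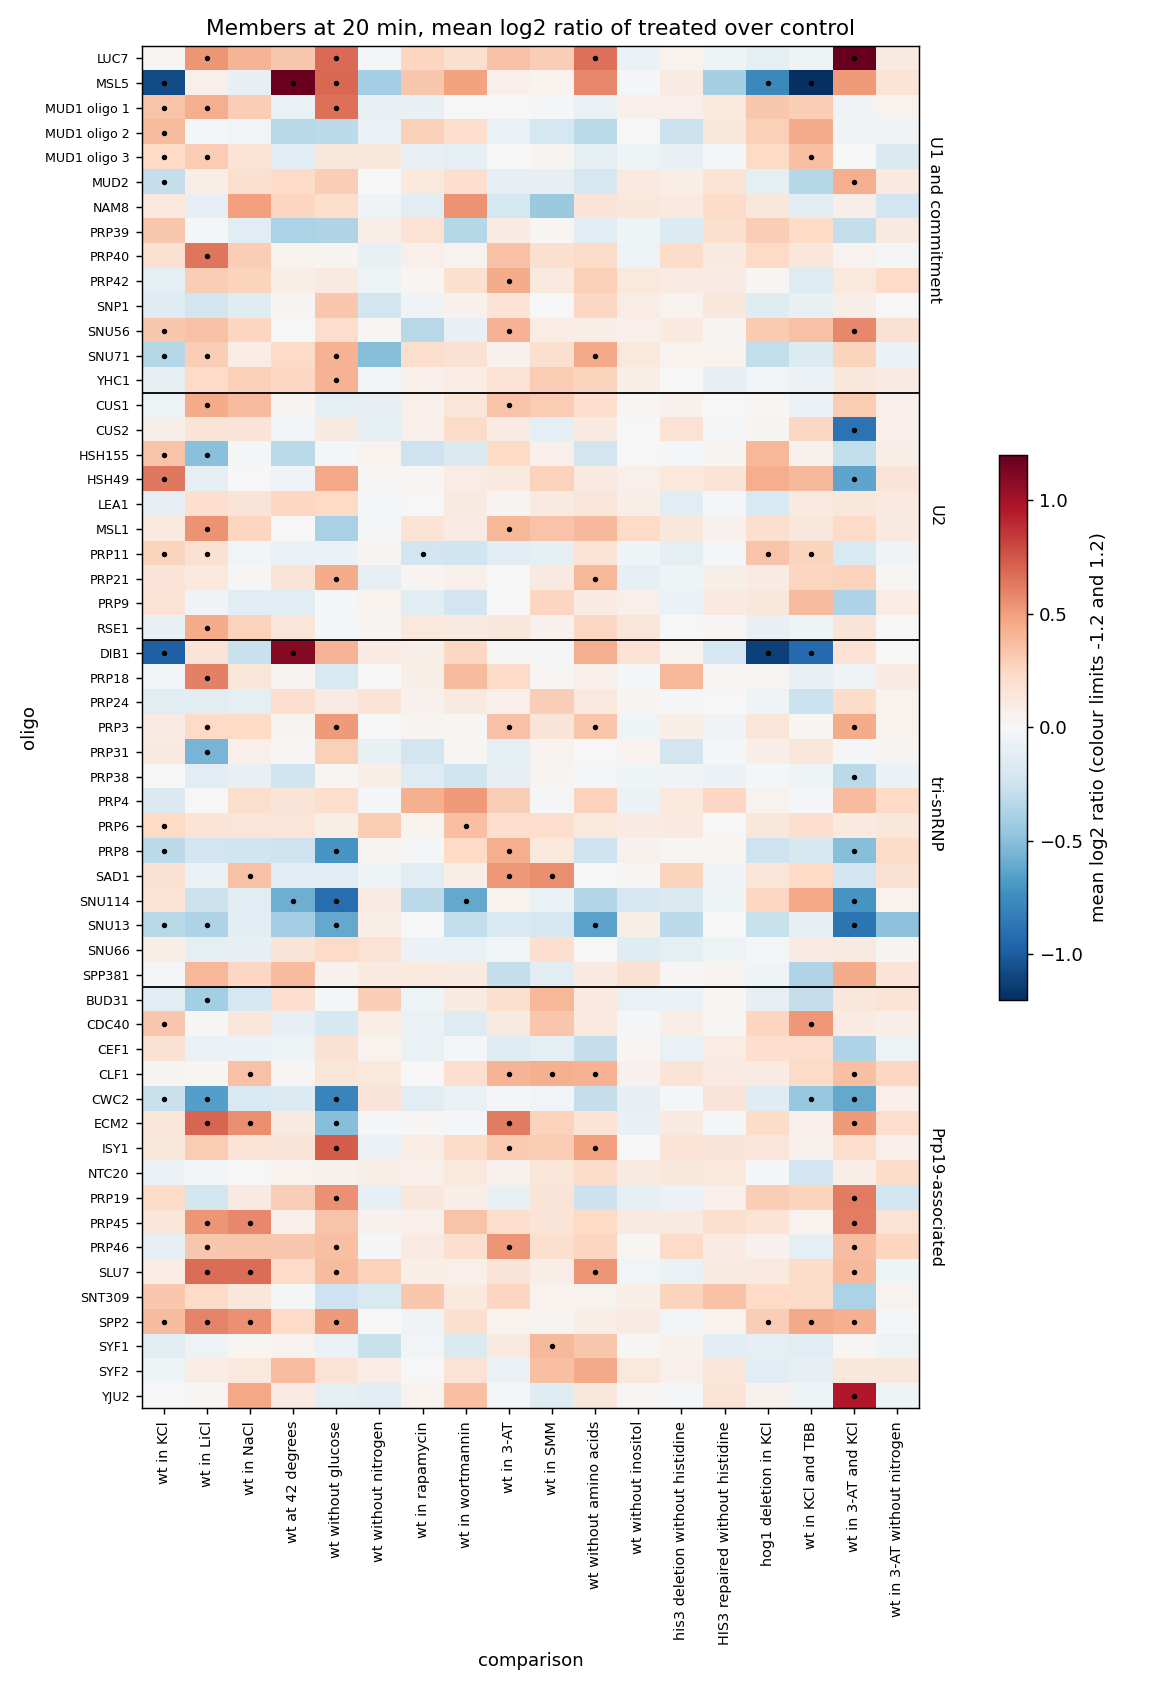
Mean log2 ratio of the 55 oligos (rows, by functional group) in the 18 comparisons at 20 min (columns). Colour runs from -1.2 to 1.2 and black dots mark limma adjusted p under 0.05. Most dotted cells are pale. The lowest dotted mean is that of MSL5 in KCl with TBB (-1.34) and the highest that of LUC7 in 3-AT with KCl (1.25), followed by MSL5 and DIB1 at 42 degrees (1.19 and 1.10).

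In KCl, 10 member oligos rose and 7 fell of 55, beside 29.2% of all oligos called (14.8% upward and 14.3% downward). The group counts upward and downward were 4 and 3 for U1 and commitment, 3 and 0 for U2, 1 and 3 for the tri-snRNP, and 2 and 1 for the Prp19-associated genes. MSL5, which encodes the branch point binding protein, had -0.58, -1.28, -1.03 and -1.40 in the 4 replicates, a mean of -1.07 ± 0.36 (SD, n = 4; limma adjusted p = 4.2e-08). DIB1, a small protein of the U5 snRNP, had -0.95, -1.11, -0.90 and -0.98, a mean of -0.98 ± 0.09 (limma adjusted p = 1.8e-06). All 4 replicates of both genes lay well below their controls. Both oligos belong to a set of 28 oligos whose values correlated above 0.8 with an oligo of NMD2 over all replicates. That NMD2 oligo itself and an oligo of the Sm gene SME1 are counted in the set. It also holds oligos of genes outside the splicing genes examined here, such as SUP61, AZF1, SMP1, SEC65 and QCR10. The part of that shared movement in the MSL5 and DIB1 values was not tested.

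HSH49, a subunit of the branch-site clamp SF3b of the U2 snRNP, had the highest mean in KCl, with replicates of 0.42, 1.00, 0.50 and 0.62 and a mean of 0.63 ± 0.25 (SD, n = 4; limma adjusted p = 8.4e-05). HSH155, the large SF3b scaffold, averaged 0.34 ± 0.17 (limma adjusted p = 0.021), from 0.45, 0.46, 0.35 and 0.10; with Cy5 orientations alone it stood at -0.08 (limma adjusted p = 0.68). PRP11, a subunit of the neighbouring SF3a complex, averaged 0.27 ± 0.13 (limma adjusted p = 0.0006). These 3 were the U2 calls, all upward. Of the commitment genes, MUD2, the partner of the branch point binding protein, fell with MSL5, at -0.29 (replicates -0.32, -0.26, -0.20 and -0.38), and SNU71, a U1 snRNP protein, fell at -0.34 (-0.38, -0.41, -0.52 and -0.06). All 3 oligos of MUD1, the yeast counterpart of protein A of the human U1 snRNP, rose, by 0.34, 0.38 and 0.24.

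Among the tri-snRNP genes, PRP8, the scaffold around the catalytic centre, fell by 0.31 in KCl (limma adjusted p = 0.0034), with -0.45, -0.32, -0.33 and -0.15. SNU13, a protein of the U4 snRNP that also binds box C/D snoRNAs, fell to -0.33, with replicates from -0.61 to -0.08. PRP6, which bridges U5 and U4/U6, was the only tri-snRNP member to rise, at 0.24. CDC40, a second-step factor, rose by 0.33 ± 0.07 (SD, n = 4; limma adjusted p = 0.00088), and SPP2, the cofactor that activates the helicase Prp2 before the first step, by 0.38 ± 0.10 (limma adjusted p = 9.6e-06). CWC2, which contacts the U6 RNA near the catalytic centre, fell at -0.27 (limma adjusted p = 0.029). Leaving out each replicate in turn left 9 to 14 member calls, with 9 without replicate 2, and 8 of the 17 were called in every such fit: MSL5, DIB1, HSH49, PRP11, PRP8, CDC40, SPP2 and MUD1 oligo 1.

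In LiCl, 16 member oligos rose and 5 fell, beside 33.8% of all oligos called (17.2% upward and 16.6% downward). All 5 U1 and commitment calls were upward; 4 U2 oligos rose and 1 fell, 2 tri-snRNP oligos rose and 2 fell, and 5 Prp19-associated oligos rose and 2 fell. ECM2, which like CWC2 binds near the U6 RNA, had 0.46, 0.84 and 0.79, a mean of 0.70 ± 0.20 (SD, n = 3). SLU7, which helps to select the downstream splice site in the second step, had 0.59, 0.77 and 0.66 and a mean of 0.67 ± 0.09 (limma adjusted p = 1.4e-08). PRP18, its partner in that step, averaged 0.61 ± 0.46 from 0.55, 1.09 and 0.18, and PRP40, a U1 protein, 0.64 ± 0.59 from 0.32, 1.32 and 0.28. The SLU7 replicates lay close together, while replicate 2 held the highest PRP18 and PRP40 values.

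CWC2 fell in LiCl to -0.66 ± 0.42 (SD, n = 3; limma adjusted p = 8.6e-07), with -0.26, -1.11 and -0.63. PRP31, which binds the U4/U6 snRNP, averaged -0.56 ± 0.64 from -0.16, -1.30 and -0.22, and HSH155 averaged -0.50 ± 0.40 from -0.13, -0.92 and -0.45. Replicate 2 was again the most extreme for these genes. Without it 9 of the 21 member calls were made, against 15 and 19 without the other replicates, and PRP31 stood at -0.19 (limma adjusted p = 0.49) and PRP40 at 0.30 (limma adjusted p = 0.26). ECM2, SLU7, SPP2, CWC2, CUS1 and RSE1 (both SF3b subunits) and PRP45 were called whichever replicate was left out. MUD1 oligo 1 (0.44) had values in 2 replicates only, while oligo 2 stood at -0.03 and oligo 3 at 0.30.

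In NaCl, 6 members rose and 0 fell, beside 15.5% of all oligos called (7.28% upward and 8.24% downward). They were SLU7 (0.77 and 0.57), PRP45, which activates the helicase Prp22 (0.72 and 0.43), ECM2 (0.75 and 0.36), SPP2 (0.63 and 0.47), CLF1, a scaffold of the Prp19-associated complex (0.38 and 0.32), and SAD1, required for tri-snRNP integrity (0.23 and 0.47; -0.04 with Cy5 orientations alone). Of the 6, 5 belong to the Prp19-associated group. Without replicate 1 there were 0 calls, and without replicate 2 there were 4.

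The difference between KCl and LiCl was itself tested, as the KCl mean minus the LiCl mean. It passed for 18 member oligos, 6 higher in KCl and 12 lower, beside 30.3% of all oligos (14.6% higher and 15.6% lower). HSH155 lay 0.84 higher in KCl (limma adjusted p = 1.3e-04), HSH49 0.75 and PRP31 0.67. In the U1 and commitment group all 5 differences were negative: MSL5 at -1.13, SNU71 at -0.64, LUC7 (which helps U1 to select the start of an intron) at -0.52, PRP42 at -0.40 and YHC1 (the counterpart of protein C of the human U1 snRNP) at -0.33. DIB1 differed by -1.14, PRP18 by -0.64, SLU7 by -0.58 and ECM2 by -0.55.

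The SF3b subunits thus differed in both directions between the salts: HSH155 and HSH49 were higher in KCl, and CUS1 (-0.50) and RSE1 (-0.54) were lower. Within batch H, which holds 1 KCl and 2 LiCl replicates, all 18 differences kept their sign, with HSH155 at 0.62, MSL5 at -1.40 and DIB1 at -1.07. Without LiCl replicate 2, 10 differences passed, and PRP31 (0.30, limma adjusted p = 0.30) was not among them; DIB1, MSL5, SNU71, HSH155, HSH49, RSE1, ECM2 and SLU7 passed in each such fit. Each salt had untreated cells of its own time as control.

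**Figure D2:**
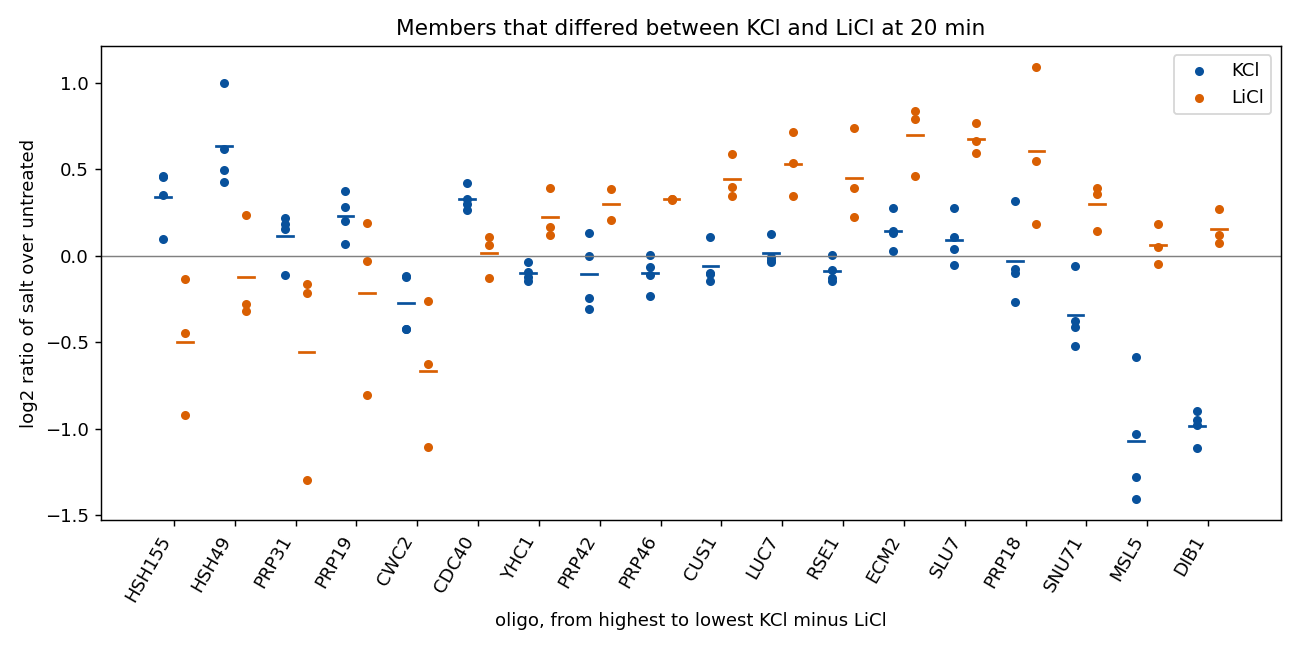
Log2 ratios over untreated cells for the 18 member oligos that differed between KCl (left of each pair, 4 replicates as dots) and LiCl (right, 3 replicates); bars are means. The KCl dots of MSL5 and DIB1 are all below 0, and those of HSH155 are above 0 in KCl and below 0 in LiCl.

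Heat shock at 42 degrees gave 2 member calls upward and 1 downward, beside 25.2% of all oligos (9.27% upward and 15.9% downward). MSL5 had 1.75 and 0.62, a mean of 1.19 ± 0.79 (SD, n = 2; limma adjusted p = 2.5e-05), and DIB1 had 1.48 and 0.72, a mean of 1.10 ± 0.54 (limma adjusted p = 1.8e-04). These are the genes that fell most in KCl, and both are in the co-moving set described above. SNU114, the GTPase of the U5 snRNP, fell to -0.59 ± 0.07 (limma adjusted p = 0.033), from -0.54 and -0.64. Without replicate 1 there were 0 member calls, with MSL5 at 0.62 (limma adjusted p = 0.33).

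Removal of glucose gave 12 calls upward and 5 downward, beside 29.1% of all oligos (15.3% upward and 13.8% downward). The U1 and commitment group had 5 upward and 0 downward, the U2 group 1 and 0, the tri-snRNP group 1 and 3, and the Prp19-associated group 5 and 2. ISY1, a Prp19-associated protein of the first step, had 0.52 and 0.94, MSL5 had 0.64 and 0.74, and LUC7 had 0.80 and 0.55. Both replicates of each were above their control. PRP8 fell to -0.71 ± 0.08 (SD, n = 2; limma adjusted p = 4.4e-06), with -0.76 and -0.65, and CWC2 to -0.79 ± 0.12 (limma adjusted p = 5.9e-06), with -0.71 and -0.87.

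SNU13 (-0.57 and -0.66), ECM2 (-0.72 and -0.30) and SNU114 (-1.55 and -0.29) also fell without glucose. The values of SNU114 differed widely between the replicates, as did those of PRP19, the ubiquitin ligase that names its complex (1.08 and 0.03). Leaving out replicate 1 left 10 calls and leaving out replicate 2 left 15; CWC2, ISY1, MUD1 oligo 1, PRP3, PRP8 and SPP2 passed in both. With each array scaled to one median absolute deviation, 1 of the 17 calls was made, that of MUD1 oligo 1.

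In 3-AT, 11 members rose and 0 fell (20.0% of the members, beside 9.13% of all oligos called, 6.59% upward and 2.54% downward): 4 Prp19-associated, 3 tri-snRNP, 2 U1 and 2 U2 oligos. ECM2 had 0.90, 0.47 and 0.50, PRP46, a WD-repeat protein of the Prp19-associated complex, 0.56, 0.19 and 0.85, and SAD1 0.49, 0.44 and 0.63. PRP8, which fell in KCl and without glucose, rose in 3-AT by 0.44, with 0.48, 0.31 and 0.53. Fits without replicate 1 or replicate 3 left 5 calls each and that without replicate 2 left 8; ECM2, PRP8 and SAD1 passed in all of them.

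In SMM, 3 members rose and 0 fell, beside 6.18% of all oligos (2.33% upward and 3.84% downward): SAD1 (0.39 and 0.73), CLF1 (0.42 and 0.43) and SYF1, another scaffold of the Prp19-associated complex (0.33 and 0.45). Without amino acids 7 rose and 1 fell, beside 22.7% of all oligos (10.3% upward and 12.4% downward). LUC7 had 0.43 and 0.88, SLU7 0.58 and 0.48, and ISY1 0.68 and 0.30, while SNU13 fell, with -0.39 and -0.89. CLF1 rose in 3-AT, in SMM and without amino acids, by 0.41 in 3-AT, 0.43 in SMM and 0.42 without amino acids. Leaving out either replicate left 1 call in SMM, and for amino acids 2 calls without replicate 1 and 5 without replicate 2.

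In the his3 deletion without histidine 0 members passed by limma, beside 0.686% of all oligos, and 5 had an unadjusted p under 0.05. In the HIS3 repaired strain 0 passed, beside 0% of all oligos, and 2 had an unadjusted p under 0.05. The difference, his3 minus HIS3 repaired, passed for 0 members, beside 0.0686% of all oligos, with 3 at an unadjusted p under 0.05. SAD1, picked here with its values in view, had 0.53, 0.21, 0.21 and 0.12 in the his3 deletion, against -0.19, 0.04, 0.05 and -0.05 in the repaired strain, so the groups did not overlap; 7.69% of all oligos and 9.09% of the members did not overlap between the strains. With batch as a block SAD1 differed by 0.31 (unadjusted p = 0.031, limma adjusted p = 0.38). SAD1 was not the largest difference in that fit, as MSL5 differed by 0.49 (unadjusted p = 0.0057, limma adjusted p = 0.24). After 40 min SAD1 rose in the his3 deletion by 0.30, and SNU13 (-0.43) and PRP11 (-0.23) fell, beside 3.98% of all oligos called.

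Both replicates of nitrogen removal are of batch C, and 1 has the same doubt of direction as rapamycin below. Nitrogen removal gave 0 member calls by limma, beside 0.137% of all oligos, with 5 at an unadjusted p under 0.05. Inositol removal gave 0, beside 0.137%, with 0 at an unadjusted p under 0.05. The comparison of 3-AT in medium without nitrogen gave 0, beside 0.137%, with 2 at an unadjusted p under 0.05. In wortmannin PRP6 rose (0.58 and 0.15) and SNU114 fell (-0.49 and -0.74), beside 10.7% of all oligos (5.49% upward and 5.22% downward). With Cy5 orientations alone PRP6 stood at -0.26 (limma adjusted p = 0.18), and without replicate 1 there were 0 calls and without replicate 2 there was 1.

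In rapamycin PRP11 was the single call, at -0.23 ± 0.27 (SD, n = 4; limma adjusted p = 0.034), beside 2.47% of all oligos (0.755% upward and 1.72% downward), and its replicates were 0.13, -0.53, -0.24 and -0.27. The direction of rapamycin is not settled. The first replicate, of batch C, runs opposite to the others over all oligos, and its treated RNA is labelled in channel 2. Its correlations were -0.51 and -0.87 with the others of batch C and -0.84 with that of batch I. With such arrays turned, 8 members rose and 5 fell, beside 41.6% of all oligos called, and with them left out 6 rose and 5 fell, beside 37.3%. Among these were PRP4, a WD-repeat protein of the U4/U6 snRNP, at 0.75 turned and 0.78 left out, MSL5 at 0.66 and 0.65, LUC7 at 0.41 and 0.45, and SNU114 at -0.47 and -0.52. Without replicate 2 or replicate 3 there were 0 calls.

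In KCl with TBB 4 members rose and 3 fell, beside 16.1% of all oligos (7.76% upward and 8.3% downward): MSL5 had -1.35 and -1.33, DIB1 -0.79 and -1.07, and CWC2 -0.69 and -0.21, while CDC40 (0.66 and 0.38) and SPP2 (0.56 and 0.34) rose. Without replicate 1 there were 3 calls and without replicate 2 there were 4, and MSL5 passed in both. The KCl replicates without TBB lie in the same directions, but the 2 conditions share their kind of control and their difference was not tested.

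In 3-AT with KCl 12 members rose and 7 fell, beside 27.2% of all oligos (13.7% upward and 13.5% downward), and 8 of the 12 were Prp19-associated. LUC7 had 1.79 and 0.72, PRP19 0.63 and 0.62, and PRP45 0.65 and 0.58. SNU13 fell to -0.87 ± 0.08 (SD, n = 2), with -0.93 and -0.82, and HSH49, which rose in KCl alone, fell, with -1.13 and -0.13. MUD2, which fell in KCl alone, rose by 0.44, with 0.09 and 0.79, and MSL5, the lowest member in KCl alone, stood at 0.51 without passing (0.49 and 0.54; limma adjusted p = 0.082). CUS2, which helps U2 RNA to fold, was called at -0.88 ± 1.75 although its replicates were of opposite sign, -2.12 and 0.36, the second being its value without arrays missing over 20% of spots. YJU2, a first-step factor counted among the 12 and the 8, had a value in 1 replicate only (0.96), so no spread of its own. Without replicate 1, which was hybridised in 1 orientation, 6 calls were made and without replicate 2 there were 18; SNU13 passed in both. With each array scaled to one median absolute deviation, 1 call was made, that of LUC7.

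The hog1 deletion in KCl had 2 members up and 2 down, beside 7.69% of all oligos (2.61% upward and 5.08% downward). MSL5 had -0.77 and -0.78, DIB1 -1.21 and -1.03, PRP11 0.37 and 0.31, and SPP2 0.23 and 0.36. All 4 moved as in the wild type, and none passed with either replicate left out. The difference, hog1 minus wild type, passed for 0 members, beside 0% of all oligos, and for 0 at an unadjusted p under 0.05, which does not show that the strains respond alike. Within batches A and G that difference was -0.19 and 0.38 for MSL5, -0.26 and -0.03 for DIB1, and -0.06 and -0.11 for SPP2.

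Other strains were measured in KCl at 20 min on 1 identifier each, with no test. Of the 17 wild-type KCl calls, 16 had the same sign in the ckb1 ckb2 double deletion (lacking the regulatory subunits of casein kinase 2), 16 in the rrp6 deletion (lacking a nuclear exosome subunit) and 14 in the edc2 deletion (lacking a decapping enhancer). SNU13 was the exception in ckb1 ckb2 and rrp6, and SNU13, SNU71 and MUD1 oligo 1 in edc2. MSL5 stood at -1.05, -1.19 and -0.70 in these strains, DIB1 at -1.08, -0.97 and -0.59, and HSH49 at 0.47, 0.45 and 0.28. A further wild-type identifier over cells before treatment matched in 16 of 17, with PRP11 the exception. In 1 M sorbitol, an osmotic stress without added salt, 8 of the 17 signs matched, and the members lay between -0.16 (PRP39) and 0.44 (DIB1). The 17 include every MUD1 oligo. The share of all oligos' KCl calls that kept their sign on these arrays was not counted.

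SPP2 passed in 7 of the 18 comparisons, all upward, and was the only member to pass in 6 or more (1.82% of the members, against 7.48% of all oligos). SPP2 was followed because of these calls, and the values that gave them are among those counted below, so the counts are partly set by the choice. The counts also pool the times of a course, and in KCl the strains. The share of all oligos that stayed above 0 in the same sets was not counted. In KCl over untreated cells, taking all strains and times, SPP2 was above its control in 36 of 36 replicates. The lowest value was 0.12, the median 0.37 and the highest 0.67. The counts were 12 of 12 in LiCl (0.04, 0.40 and 0.81), 8 of 8 in NaCl (0.28, 0.39 and 0.63), 8 of 8 in KCl with TBB (0.31, 0.52 and 0.56) and 8 of 8 without glucose (0.10, 0.40 and 0.78). These counts cover the replicates set over untreated cells; over wild-type cells in KCl, SPP2 stood between -0.14 and -0.02 in the ckb1 ckb2 deletion in KCl (4 times, 1 identifier each) and at -0.65 after 40 min in KCl with TBB (1 identifier). In 3-AT without salt 6 of 12 were above 0 (median -0.01), without histidine 10 of 32 (median -0.03), and in rapamycin, with its unsettled direction, 4 of 13 (median -0.09). In dithiothreitol, a reducing agent, 7 of 8 were above 0 over both doses together (median 0.25), in wortmannin 7 of 8 (median 0.15) and without phosphate 4 of 4 (median 0.09).

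At 42 degrees 12 of 12 SPP2 replicates were above 0 (0.13, 0.24 and 0.40), yet the limma adjusted p at its times was between 0.053 and 0.073. Those tests used 2 replicates at each time, and the other heat replicates counted were in groups of 1 replicate without a test. In sorbitol 4 of 4 were above 0 with a median of 0.15. SPP2 passed at 5, 10, 20 and 40 min in KCl (0.33, 0.43, 0.38 and 0.36), in NaCl (0.35, 0.37, 0.55 and 0.40) and in KCl with TBB (0.48, 0.40, 0.45 and 0.55). In LiCl it passed at 5, 10 and 20 min (0.40, 0.53 and 0.59) and stood at 0.18 at 40 min (limma adjusted p = 0.07). Without glucose it passed at the same 3 times (0.44, 0.53 and 0.51) and stood at 0.12 at 40 min (limma adjusted p = 0.36).

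**Figure D3:**
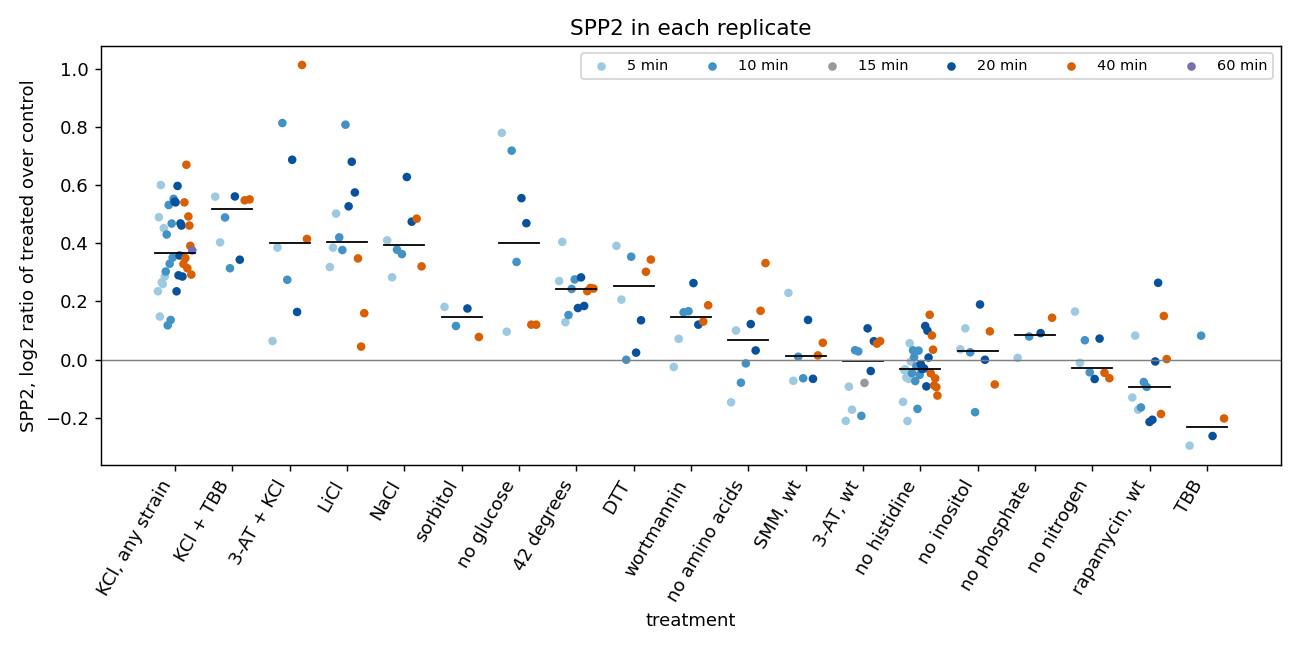
SPP2 log2 ratio over control in every replicate, by treatment, coloured by time, with the median as a black bar. The points of KCl, LiCl, NaCl, KCl with TBB, 3-AT with KCl, glucose removal and heat all lie above 0, and those of histidine removal and rapamycin lie on both sides of it. The values for which SPP2 was chosen are among these points.

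Over 5, 10 and 40 min together the members were called 308 times, in 9.66% of 3190 tests, beside 11.1% of all oligo tests of these groups. In 25 cases a member oligo passed at all 4 times of a course, 2.53% of the members' courses beside 3.14% of all oligos' courses. In KCl these were MSL5 (-0.95, -1.03, -1.07 and -0.63 at 5, 10, 20 and 40 min), DIB1 (-0.78, -0.91, -0.98 and -0.86), PRP8 (-0.34, -0.37, -0.31 and -0.43), SNU71, HSH49 (0.67, 0.59, 0.63 and 0.88), SPP2 and MUD1 oligo 1. These oligos, which were picked for passing at all 4 times, came from all 4 groups. The share of all oligos that did so in KCl alone was not counted.

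In LiCl ECM2 passed at every time (0.64, 0.59, 0.70 and 0.32), as did SLU7 (0.41, 0.64, 0.67 and 0.43). Without glucose ISY1 (0.78, 0.57, 0.73 and 0.39), LUC7 (0.75, 0.54, 0.68 and 0.83), SLU7 (0.38, 0.37, 0.38 and 0.34) and MUD1 oligo 1 rose throughout and SNU13 fell throughout (-0.64, -0.60, -0.61 and -0.71). Some changes passed at the later times only. In 3-AT CLF1 stood at 0.16 at 5 min, without passing, and passed at 0.31, 0.41 and 0.41 afterwards, and ECM2 passed at 20 and 40 min (0.62 and 0.66) but not at 5 and 10 min (0.16 and 0.29). At 42 degrees MSL5 stood at 0.19 and 0.52 without passing and then at 1.19 and 1.18, and DIB1 at 0.20 and 0.60 and then at 1.10 and 1.69.

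CWC2 passed at 5, 10 and 20 min in KCl (-0.45, -0.33 and -0.27) and in LiCl (-0.49, -0.46 and -0.66) and stood at -0.15 and -0.21 at 40 min without passing, while in KCl with TBB and in 3-AT with KCl it passed at all 4 times. Without glucose it stood at -0.08 and -0.31 at 5 and 10 min without passing and passed at 20 and 40 min (-0.79 and -0.47). PRP19 was called in both directions in the glucose course, at -0.60 ± 0.75 at 5 min and 0.51 at 40 min, and PRP8 without amino acids, at -0.44 at 10 min and 0.31 at 40 min. HSH49 and PRP46 did so in 3-AT with KCl, and PRP46 also without glucose.

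**Figure D4:**
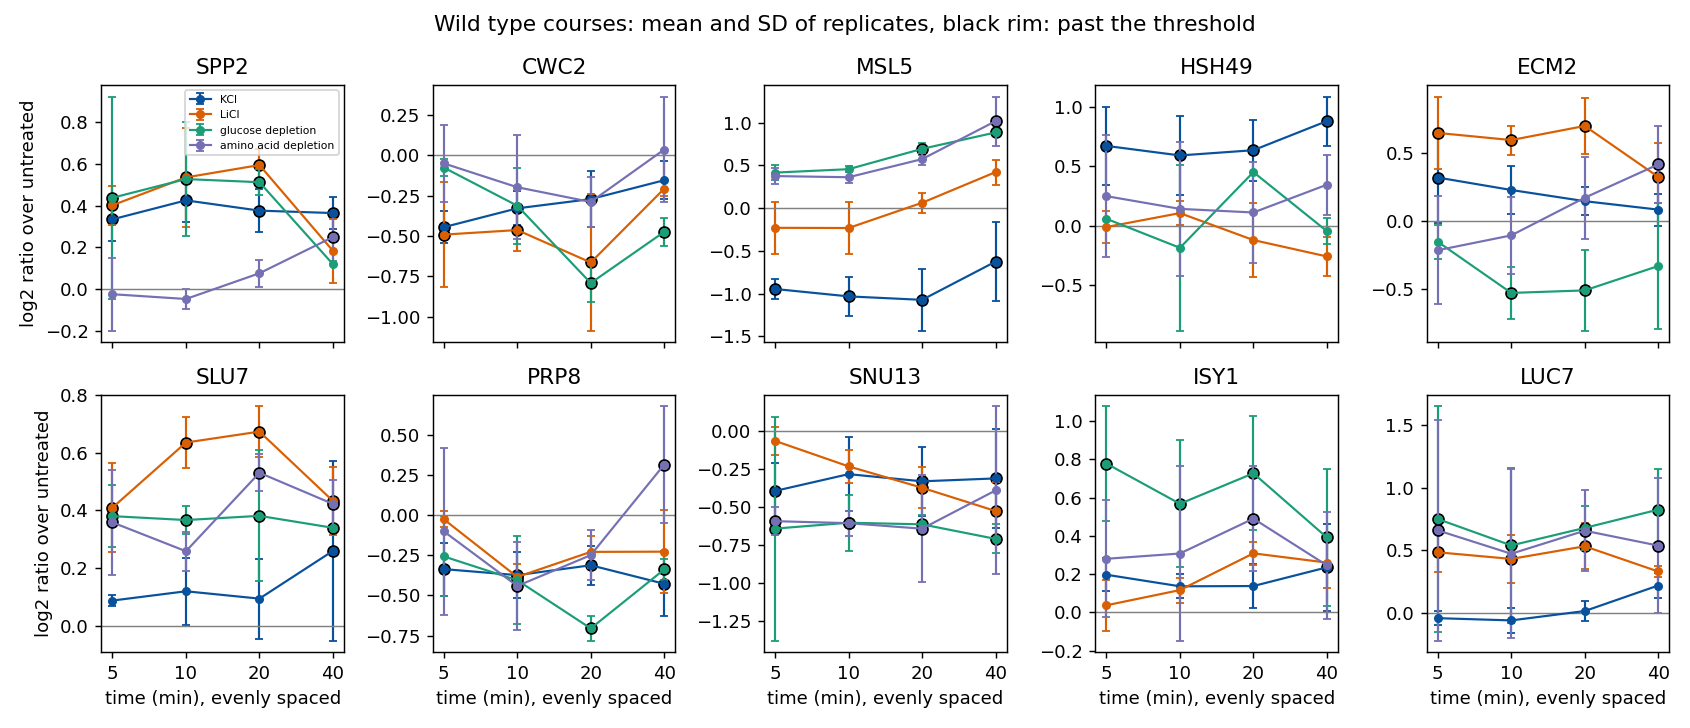
Log2 ratios of 10 member oligos at 5, 10, 20 and 40 min in KCl, LiCl, glucose removal and amino acid removal; points are means, bars SD over replicates, and black rims mark limma adjusted p under 0.05. SPP2 lies above 0 at all times of the first 3 courses, and MSL5 below 0 throughout KCl.

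The members did not move as one set. Over the means of 79 replicated groups, which share batches and kinds of control, the median correlation between member oligos was 0.06 within U1 and commitment, 0.12 within U2, 0.02 within the tri-snRNP, 0.08 within the Prp19-associated group and 0.05 between groups. DIB1 and MSL5 were the most alike pair (r = 0.88), and both are in the set that moved with NMD2 (r = 0.80 and 0.94 with its oligo). Within SF3b, HSH155 and HSH49 correlated at 0.60, while HSH155 and RSE1 stood at -0.44 and HSH49 and RSE1 at -0.39. SPP2 was most like MUD1 oligo 1 (0.73) and SLU7 (0.70) and ran opposite to CWC2 (-0.75).

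Among members, MSL5 had the widest spread over the 18 comparison means (SD 0.63), followed by DIB1 (0.54), and PRP6 the narrowest (0.09). PRP6 and PRP45 were above 0 in 18 of 18 comparisons, CWC2 in 3, and PRP38, which is needed for spliceosome activation, and SNU13 in 4. Passing 5 times each were CLF1, PRP3 and SLU7, upward each time, CWC2 and SNU13, downward each time, and PRP11, ECM2 and MSL5. In all, 9 members (16.4%, beside 18.6% of all oligos) were called in both directions, among them MSL5, ECM2 and PRP8. The 13 oligos called in 0 comparisons (23.6% of the members, against 18.6% of all oligos) were CEF1, LEA1, NAM8, NTC20, PRP24, PRP39, PRP4, PRP9, SNP1, SNT309, SNU66, SPP381 and SYF2.

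In KCl the 3 MUD1 oligos averaged 0.34, 0.38 and 0.24, and none differed from the mean of the other MUD1 oligos by the limma test, beside 37.2% of the 710 oligos of 235 genes so tested. Without glucose oligo 1 stood at 0.66, which was 0.68 above the others (limma adjusted p = 0.000182), beside 22.8% of oligos called. Oligo 3 stood at 0.13, and oligo 2 had a value in 1 replicate only (-0.32), so no spread of its own. Which part of MUD1 each oligo reads was not available here to tell whether spliced and unspliced RNA parted.

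Of 37 oligos of 29 other splicing genes (helicases, Sm and LSM ring proteins, cap-binding and retention proteins), 11 rose and 4 fell in KCl, where LSM oligos made up 7 of those that rose. In LiCl 6 rose and 4 fell, without glucose 5 and 3, without amino acids 5 and 4, and in 3-AT 2 and 0. More fell than rose at 42 degrees (2 up and 4 down) and in 3-AT with KCl (1 up and 5 down, 3 of these helicases). In NaCl there was 1 in each direction. The shares of all oligos called are those given above for each treatment, and no difference from the snRNP and Prp19-associated genes was tested.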

How the data were processed

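The deposited values are log2 ratios of channel 1 over channel 2 per spot, as read from the authors' value tables, and the labels describe acid phenol extraction, aminoallyl-dUTP incorporation and Cy3 or Cy5; scanner settings, normalization and the log base are not given in the sources used here. Arrays labelled with treated RNA in channel 2 were sign-changed (11 identifiers). Spots were averaged per oligo and dye orientations per identifier. All 79 groups with 2 or more replicates (195 values) were fitted together with limma 3.58.1 in R 4.3.3 (one mean per group, tested against 0, two-sided, Benjamini-Hochberg over 1457 oligos, threshold 0.05); 116 further groups have 1 replicate and no test. The dye effect followed the labels in 282 of 282 pairs. The treated over control values of the 2 orientations correlated above 0 across oligos in 196 of these pairs (median r = 0.37, lowest -0.73). In the other pairs the orientations that were averaged did not agree. The method was tested on simulated data. The text names the 6 highest and 6 lowest called members per comparison and, where they complete a group, others picked with their values in view; members called in 6 or more comparisons were followed throughout. The members, lists and alternatives were chosen with earlier results of these data known. Values for the deleted genes other than RRP6 were not analysed here. Figures used Python 3.11.15 and matplotlib 3.10.9.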

Additional observations from a re-analysis of the deposited data

How the results depend on the processing

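No paired analysis was possible because the labels give no replicate numbers that pair samples and each control lies on the same array as its treated RNA. With batch as a fixed block, an alternative added after seeing the data and fitted on these strains alone, hog1 minus wild type (2 and 3 replicates) and his3 minus HIS3 repaired (4 and 4) again gave 0 member calls by limma, with 0 and 4 members at an unadjusted p under 0.05. Among the settings compared call by call, the mean of HSH155 in KCl (-0.08), SAD1 in NaCl (-0.04) and PRP6 in wortmannin (-0.26) had the other sign with Cy5 orientations alone, and that of CUS2 in 3-AT with KCl (0.36) without arrays missing over 20% of spots or with 1 orientation; none of these passed. Leaving out 1 replicate at a time gave member counts of 9 to 14 in KCl, 9 to 19 in LiCl, 0 to 4 in NaCl, 0 to 2 at 42 degrees, 10 to 15 without glucose, 0 to 2 without nitrogen, 0 to 11 in rapamycin, 0 to 1 in wortmannin, 5 to 8 in 3-AT, 1 to 1 in SMM, 2 to 5 without amino acids, 0 to 0 in hog1, 3 to 4 in KCl with TBB, 6 to 18 in 3-AT with KCl and 10 to 20 for KCl minus LiCl, and 35 of all calls passed in every such fit. The median of 6 spots gave 0 in rapamycin and 1 in wortmannin. Cy5 orientations alone gave 7 at 42 degrees, 10 in rapamycin, 9 in wortmannin, 6 in 3-AT, 3 without inositol, 4 in his3, 1 in 3-AT without nitrogen and 7 between oligos of 1 gene. Scaling arrays to one median absolute deviation gave 10 in KCl, 1 at 42 degrees, 1 without glucose, 1 without nitrogen, 0 in rapamycin, 1 in wortmannin, 0 without amino acids, 2 without inositol, 7 in his3, 4 in KCl with TBB, 1 in 3-AT with KCl, 2 in 3-AT without nitrogen, 7 for KCl minus LiCl, 2 for his3 minus HIS3 repaired, 4.86% of tests at 5, 10 and 40 min (9.66% unscaled) and 1 between oligos. Batch as a random block gave 5 in SMM. Without the noisiest oligos (spot SD above the quantile 0.75) there were 0 in rapamycin and 1 in wortmannin. Without arrays missing over 20% of spots there were 13 in LiCl, 10 in NaCl, 5 at 42 degrees, 0 in rapamycin, 5 in SMM, 13 without amino acids and 8 in 3-AT with KCl. Without the oligos that moved with NMD2 there were 1 at 42 degrees, 1 in wortmannin and 1 in hog1. Fitting each comparison's groups alone gave 6 in LiCl, 15 in NaCl, 0 at 42 degrees, 0 without glucose, 0 in rapamycin, 7 in wortmannin, 1 in 3-AT, 3 without amino acids and 0 in 3-AT with KCl. With the batch C arrays labelled in channel 2 turned there were 1 without nitrogen, 13 in rapamycin and 4 in wortmannin. With them left out there were 11 in rapamycin and 4 in wortmannin, and nitrogen removal kept 1 replicate. Wortmannin moved there through the shared spread. Other alternatives added after seeing the data were subtracting the dye effect and leaving out identifiers with 1 orientation. The first lost 3 calls and gained others, such as PRP46 at 42 degrees, PRP45 and MUD2 without glucose, and CDC40 in SMM. The second gave 1 in SMM and 10 in 3-AT with KCl. For the other changed counts the cause was not tested. Spot intensities were not used here, and groups of 2 replicates limit the precision.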

Other observations

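SNT309, a subunit of the Prp19-associated complex called in 0 comparisons, held the highest value of the members in 9 of the 13 groups that set the rrp6 deletion over the wild type, on 1 identifier each and with no test. It stood at 1.64, 1.198, 1.69 and 1.65 after 5, 10, 20 and 40 min in KCl, at 0.79 and 0.73 after 20 and 40 min in LiCl, at 0.69 and 0.82 after 5 and 10 min in rapamycin, and at 1.03 before treatment. SNT309 was picked for these ranks, and its values in the remaining groups (LiCl at 5 and 10 min, rapamycin at 20 and 40 min) are not given. Its rank among all oligos of the array was not counted. In the wild type after 60 min in KCl SNT309 stood at 1.26, and MSL5 at -0.73. SPP2 in the rrp6 deletion over the wild type stood at 0.64, 0.20, 0.17 and 0.41 after 5, 10, 20 and 40 min in KCl.

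In SMM on 1 identifier each, PRP9, an SF3a subunit, stood at 1.77 in the cka2 deletion and HSH49 at 1.10 in the cka1 deletion. These arrays were hybridised in 1 dye orientation. Each strain was measured at 10 and 20 min, and each value given is that of 1 time, picked with the values in view.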
